A study of Mus musculus with 4 samples.

Results

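Adipocyte marker genes are 8 genes by which fat cells are usually recognised: Adipoq, Lep, Cfd, Plin1, Cidec, Fabp4, Scd1 and Pparg. They were found by gene symbol in the expression values of tibialis anterior (TA) muscle, a muscle of the shin, and all 8 were present with 1 locus each among the 20340 gene labels with a value in all 4 samples. The samples came from wild-type C57BL/6 mice without transgene or treatment: Old 1 and Old 2 from mice aged 20 months, and Young 1 and Young 2 from mice aged 3 months. The comparison addresses which transcripts differ between these ages, in a study of age-related muscle atrophy. The values were fragments per kilobase of transcript scaled to the mapped fragments of the sample (FPKM), a level corrected for transcript length. The labels do not say whether both samples of an age came from different mice, so the p-values measure only the spread between these samples, which may be technical.

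White fat cells hold their triglyceride in a single large droplet and also act as secretory cells. Adiponectin (Adipoq), leptin (Lep) and adipsin (Cfd, the complement factor D protease) are secreted, perilipin 1 (Plin1) and Cidec coat the droplet and control its breakdown and its fusion, Fabp4 carries fatty acids in the cytosol, Scd1 desaturates them, and the nuclear receptor Pparg drives the program. Muscle holds few such cells, lying between fibers and around vessels, so their transcripts form a small part of its RNA. Fabp4 is also made by capillary endothelial cells and macrophages, and Scd1 and Pparg by other cell types, whereas Adipoq, Plin1 and Lep are largely kept to fat cells. In whole tissue, fewer cells of a type and less RNA per cell cannot be told apart.

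Promoter sequences from RefSeq (GRCm38.p6, the mm10 build of the files) were matched by symbol for 6 of the 8 genes, and Fabp4 and Scd1 had no entry. The 250 bases upstream of a start site are shown for 5 genes that differ below in how the Old samples compare with the Young, each written 5′ to 3′ on the strand of its gene, with motif matches in capitals. The motifs searched on both strands were the PPAR-type direct repeat AGGTCANAGGTCA, the hexamer AGGTCA that the repeat contains, the C/EBP-type motif TTGCNNAA, the CCAAT box, the TATA box TATAAA and the E-box CACGTG. Adipoq is at chr16:23146286-23146535 (plus strand), Lep at chr6:29059971-29060220 (plus), Plin1 at chr7:79732777-79733026 (minus), the outermost of 2 Cidec start sites at chr6:113435761-113436010 (minus), and the downstream of 3 Pparg start sites at chr6:115421816-115422065 (plus).
Adipoq: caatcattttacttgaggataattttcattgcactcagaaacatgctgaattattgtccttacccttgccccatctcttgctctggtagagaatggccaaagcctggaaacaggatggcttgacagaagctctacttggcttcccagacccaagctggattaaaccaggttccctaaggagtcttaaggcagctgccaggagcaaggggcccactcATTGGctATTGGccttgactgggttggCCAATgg
Lep: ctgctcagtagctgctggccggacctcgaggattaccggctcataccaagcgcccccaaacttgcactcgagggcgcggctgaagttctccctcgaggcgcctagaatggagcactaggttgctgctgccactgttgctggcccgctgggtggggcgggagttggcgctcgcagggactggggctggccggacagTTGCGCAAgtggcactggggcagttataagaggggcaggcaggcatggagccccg
Plin1: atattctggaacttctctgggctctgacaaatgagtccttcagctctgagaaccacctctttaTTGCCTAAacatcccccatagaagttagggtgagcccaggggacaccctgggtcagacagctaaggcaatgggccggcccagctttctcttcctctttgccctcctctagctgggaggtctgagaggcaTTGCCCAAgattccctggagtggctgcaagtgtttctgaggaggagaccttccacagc
Cidec: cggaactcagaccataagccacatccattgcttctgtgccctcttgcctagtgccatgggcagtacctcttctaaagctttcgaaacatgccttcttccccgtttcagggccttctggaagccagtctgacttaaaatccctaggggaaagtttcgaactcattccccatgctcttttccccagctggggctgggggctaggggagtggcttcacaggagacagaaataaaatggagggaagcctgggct
Pparg: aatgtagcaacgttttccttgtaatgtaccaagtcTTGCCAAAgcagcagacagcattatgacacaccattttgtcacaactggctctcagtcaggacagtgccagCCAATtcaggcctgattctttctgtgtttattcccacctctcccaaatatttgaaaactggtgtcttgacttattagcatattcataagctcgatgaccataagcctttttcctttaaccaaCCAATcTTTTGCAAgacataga
The Adipoq window held 3 CCAAT boxes, at -34 to -30, -27 to -23 and -7 to -3 counted from the start site, and no CpG. Plin1 held the C/EBP-type motif at -187 to -180 and -58 to -51, Lep held it at -55 to -48, where it reads the same on both strands, and the downstream Pparg site held it at -215 to -208 and -16 to -9. That Pparg site also held CCAAT boxes at -144 to -140 and -22 to -18, and the outermost Cidec window held no match. Of the windows not shown, the other Cidec site held the C/EBP-type motif at -198 to -191, and the upstream Pparg sites each held the hexamer, at -28 to -23 and at -9 to -4, the latter with a TATA box at -29 to -24 and a CCAAT box at -83 to -79. The Cfd window held no match. Of 32851 mouse start sites with windows of the same length, 9.56% held the C/EBP-type motif, 33.8% a CCAAT box, 14% the hexamer, 12.4% the TATA box, 6.02% the E-box and 0.0335% the direct repeat. The direct repeat was in none of the windows of the 6 genes. Lep had the most CpG of the 5 windows shown (16, against a median of 6 over all start sites), with 65.6% G and C. These letters describe the windows only, since no binding or methylation was measured here.

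The 4 samples were not on 1 scale, and this bears on every value below. The median over the 10639 genes above 0 in all 4 samples was 7.20 FPKM in Old 1 and 7.18 in Young 2, but 3.04 in Old 2 and 3.07 in Young 1, and 5223 and 5335 loci were at 0 in the former pair against 9558 and 9452 in the latter. Old 1 was therefore like Young 2 in scale, and Old 2 like Young 1, and ratios within these like-scaled pairs are given as descriptions. Among genes between 30 and 1000 FPKM, the log2 ratio of both samples of an age had a robust SD of 0.06 in each age, against 0.40 (Old 1 to Young 2) and 0.39 (Old 2 to Young 1) across ages. The study describes its sequencing experiments as independent, and whether these samples are separate libraries was not tested. If they are not, each age has n = 1 and the 2 ratios of a gene do not check each other, so values are given per sample without an SD. Of 9 muscle fiber markers with a value, 8 were above 0 in every sample, while Ckm, the muscle creatine kinase, was listed at 0 in all 4. Pvalb, a calcium buffer of fast fibers, was at 20399 FPKM in Old 1 against 19956.5 in Young 2, and 3329 in Old 2 against 3244 in Young 1.

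Fabp4 stood highest of the 8 genes in every sample and the secreted hormone Lep lowest of those above 0. Fabp4, on chr3:10204343-10208576, was at 313 FPKM in Old 1 against 345 in Young 2, and 163 in Old 2 against 181 in Young 1, which placed it between percentiles 97.9 and 98.3 of the genes above 0. Cfd came next in Old 1 and Young 2 but was listed at 0 in the other samples. Scd1 ranged from 8.96 to 34.9 FPKM and Adipoq from 1.37 to 8.49, so the ranges of Fabp4, Scd1 and Adipoq did not overlap. Below them Cidec (0.693 to 3.15), Plin1 (0.422 to 2.18), Pparg (0.369 to 2.93) and Lep (0.0572 to 1.42) overlapped, and their order changed with age: Pparg stood above Cidec and Plin1 in both Young samples and below both genes in both Old samples. Adipoq lay at percentiles 66.5 and 51.2 in Old 1 and Old 2 and at 36.7 and 53.6 in Young 1 and Young 2.

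**Figure D1:**
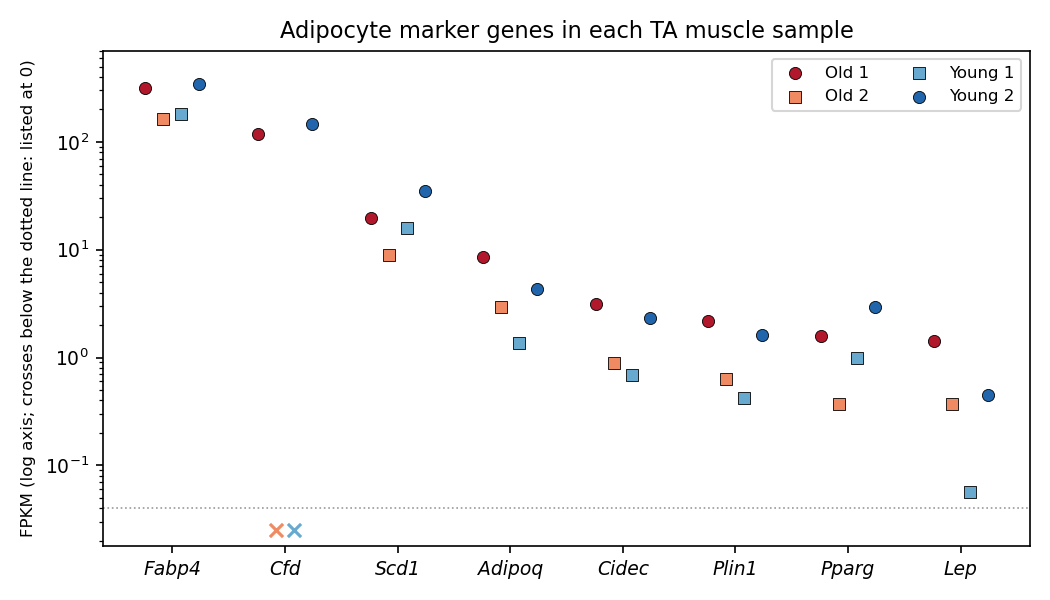
FPKM of each adipocyte marker gene (log axis) in Old 1, Old 2, Young 1 and Young 2, 1 point a sample, with circles for Old 1 and Young 2, squares for Old 2 and Young 1, and crosses below the dotted line for values listed at 0. Fabp4 is highest in every sample (163 to 345 FPKM), Cfd is at 0 in Old 2 and Young 1, and for each of the other 7 genes the circle lies above the square of the same age.

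Each of the 7 genes above 0 throughout was higher in Old 1 than in Old 2 and in Young 2 than in Young 1, and the factor was larger for the weakly expressed ones. For Fabp4 it was 1.92 in Old and 1.91 in Young, and for Scd1 it was 2.22 and 2.21. On the log2 scale these were 0.94 and 0.93 for Fabp4, beside medians of 1.03 and 1.01 over genes within 1.5-fold of its level, and 1.15 and 1.14 for Scd1, beside 0.99 and 0.96. Adipoq differed 2.86-fold between the Old samples and 3.14-fold between the Young, Plin1 3.49-fold and 3.80-fold, and Cidec 3.53-fold and 3.36-fold. Pparg differed 4.27-fold and 2.94-fold. Lep, the lowest, differed 3.86-fold and 7.86-fold, beside a median log2 of 1.89 and 2.61 at its level. For Adipoq, Plin1, Cidec, Fabp4, Scd1 and Pparg the factor between samples of an age thus exceeded the difference between ages given below.

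**Figure D2:**
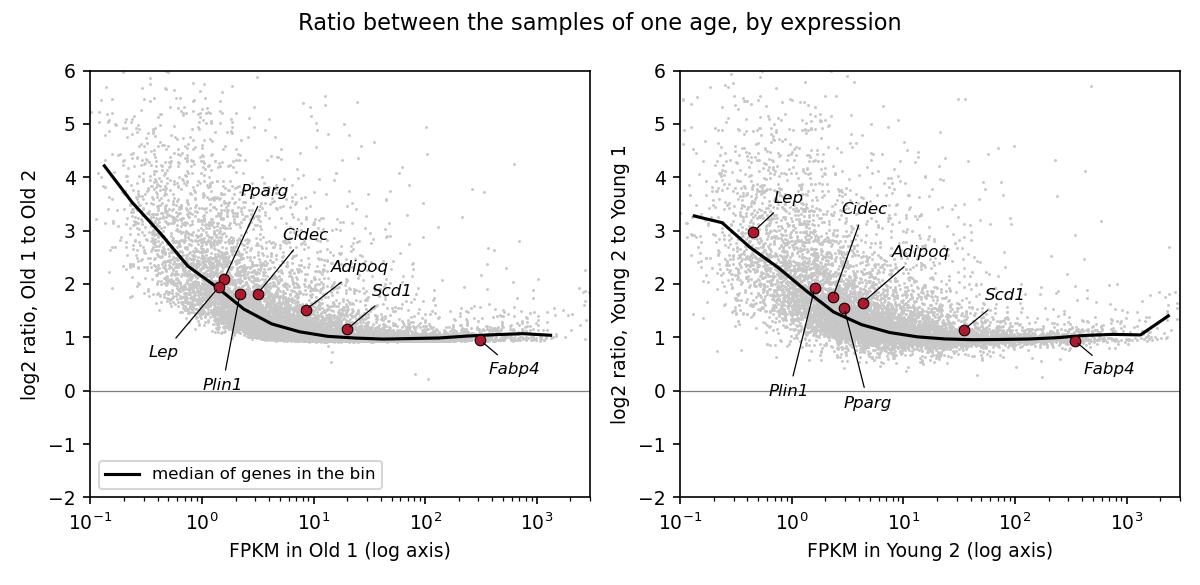
Log2 FPKM ratio of Old 1 to Old 2 against FPKM in Old 1 (left) and of Young 2 to Young 1 against FPKM in Young 2 (right), both level axes logarithmic. Grey points are genes, the black line is the median of genes in bins of level, and red points are the adipocyte marker genes above 0 in all 4 samples. The median falls from log2 2.57 (Old) and 2.45 (Young) between 0.3 and 1 FPKM to 0.98 and 0.97 between 30 and 1000 FPKM, and Lep and Pparg lie on its steep part.

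With the values as deposited, no adipocyte marker gene passed the test between ages. In limma on log2(FPKM + 1), 0 of 7 genes tested had a Benjamini-Hochberg adjusted p under 0.05, beside 0.302% of the 10266 genes tested (0.175% higher and 0.127% lower in Old), and 0 of 7 had an unadjusted p under 0.05, beside 0.75%. Lep was not tested, because it reached 1 FPKM in 1 sample only. The limma adjusted p was 1.00 for each of the 7, and their standard errors, 0.93 to 1.05 on the log2 scale, were larger than any of the log2 fold changes. In this fit limma took the variance wholly from its trend over all genes, so these errors are not the spread of each gene itself. The factor between samples of an age is part of that error, so missing the threshold here does not show that a gene was alike at both ages. On that scale the fold changes of Old against Young were 0.79 for Adipoq, 0.24 for Plin1, 0.24 for Cidec, -0.15 for Fabp4, -0.58 for Pparg and -0.77 for Scd1. Cfd, at -0.15, took its values of 0, described below, as levels. The median of the 7 was -0.15, beside -0.01 over all tested genes, and it was 0.05 over the 6 genes left without those at 0. Adding 1 FPKM understates the change of genes as low as Plin1, Cidec, Pparg and Lep. An exact two-sided permutation test of single genes gave p = 0.667 for 7 of the genes and 1.00 for Cfd, where 0.33 is the smallest p that 2 against 2 samples allow. The FPKM of the Old and Young samples overlapped for all 8 genes, whereas 3.3% of the genes above 0 in all 4 samples did not overlap. Leaving out Old 1 or Young 1 turned the fitted change of Plin1 (to -0.24 or -0.20) and Cidec (to -0.33 or -0.25) below 0, and leaving out Old 2 or Young 2 turned that of Fabp4 (to 0.32 in each) above 0. Adipoq then ran from 0.16 to 1.42, Scd1 from -1.32 to -0.22, and Pparg from -1.07 to -0.09.

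Within like-scaled samples the adipocyte marker genes did not all go the same way. Adipoq, Plin1, Cidec and Lep were higher in Old in both pairs, 4 of the 7 genes with both ratios, beside 44.8% of all genes above 0 in every sample. Fabp4, Scd1 and Pparg were lower in both pairs, 3 of 7, beside 48.3%. At least 1.5-fold in both pairs, Adipoq and Lep were higher (2 of 7, beside 7.57% of genes) and Scd1 and Pparg lower (2 of 7, beside 10.3%). Lep alone of the 7 was at least 2-fold higher in both (beside 2.02%), and none was at least 2-fold lower (3.05%). The median log2 ratio of all these genes was -0.01 for Old 1 to Young 2 and -0.03 for Old 2 to Young 1.

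**Figure D3:**
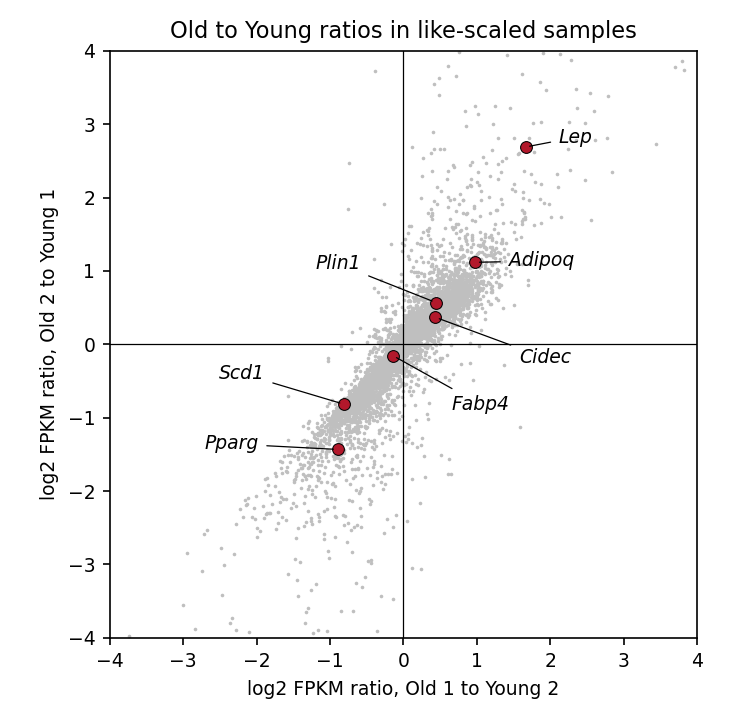
Log2 FPKM ratio of Old 1 to Young 2 against that of Old 2 to Young 1, with grey points for genes above 0 in all 4 samples with a mean of at least 0.5 FPKM (9775 genes, 43 of them outside the axes) and red points for the adipocyte marker genes, without Cfd. Lep and Adipoq lie at the upper right, Plin1 and Cidec between 0.37 and 0.57 on both axes, Fabp4 just below 0, and Scd1 and Pparg at the lower left.

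Among the secreted products, adiponectin and leptin transcripts were higher in the Old sample of each pair. Adipoq, on chr16:23146536-23157968, was at 8.49 FPKM in Old 1 against 4.30 in Young 2, and 2.97 in Old 2 against 1.37 in Young 1. Young 2 thus lay above Old 2, and only the like-scaled samples separate the ages. The ratio was 1.97 for Old 1 to Young 2 and 2.17 for Old 2 to Young 1, with a geometric mean of 2.07, and both log2 ratios (0.98 and 1.12) lay above the 90th percentile of genes within 1.5-fold of its level (0.59 and 0.58).
Lep, on chr6:29060221-29073876, was at 1.42 FPKM in Old 1 against 0.449 in Young 2, and 0.369 in Old 2 against 0.0572 in Young 1. It was the weakest of the genes and its ratios were the largest and the most unlike, 3.17 and 6.45. The log2 ratios, 1.66 and 2.69, lay above the 90th percentiles of genes near its level, 0.68 and 1.43. The 2.69 rests on 0.0572 FPKM in Young 1, and the reads behind that value are unknown, because FPKM holds no counts.

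Adipsin could be compared between ages in 1 pair only. Cfd was at 119 FPKM in Old 1 against 147 in Young 2, and 0 in Old 2 against 0 in Young 1. The files place it in an interval of 672 kb on chr10:79697305-80369637 that 46 loci share, although the RefSeq gene itself spans only chr10:79890853-79892655. All 46 loci were listed at 0 in Old 2 and in Young 1, while 43 were above 0 in Old 1 and 45 in Young 2. Genes that every cell uses were among them: the ribosomal protein gene Rps15 was at 1919 FPKM in Old 1 and 1133 in Young 2, and the peroxidase gene Gpx4 at 806 and 962. A 0 for Cfd in these samples is therefore shared by its whole interval and gives no level of Cfd. The ratio of Old 1 to Young 2 was 0.808, beside a median of 0.839 over the 43 loci above 0 in both, whose log2 ratios ran from -1.05 to 0.76. Over all genes, 697 were at 0 in Old 2 and Young 1 but at 1 FPKM or more in Old 1 and Young 2, and 0 showed the opposite. The other 7 adipocyte marker genes had intervals of their own.

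**Figure D4:**
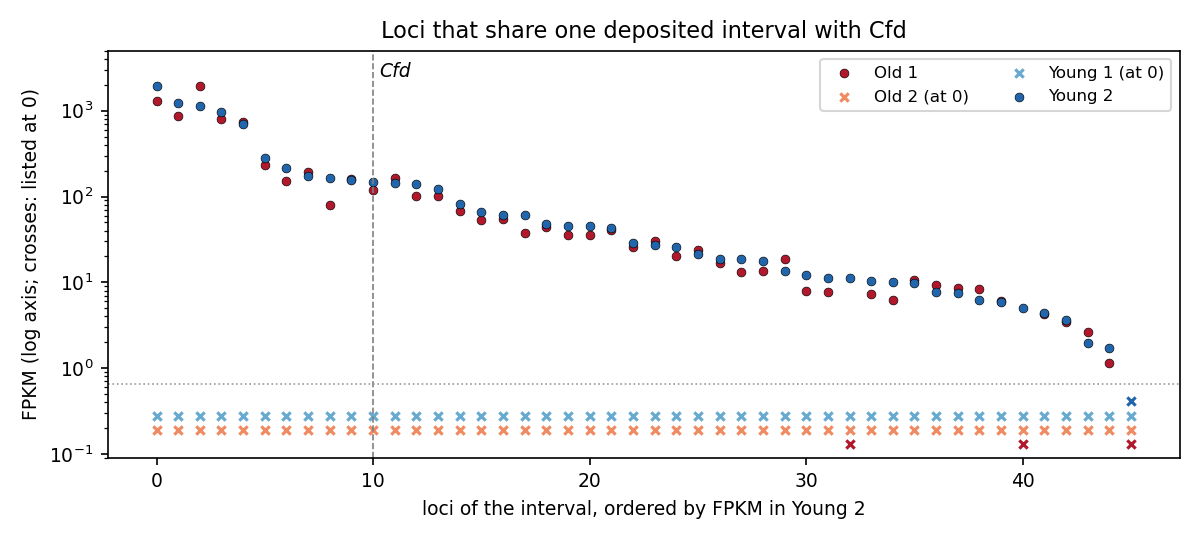
FPKM (log axis) of the 46 loci that share the deposited interval of Cfd, ordered by their level in Young 2, with circles for Old 1 and Young 2 and crosses below the dotted line for values listed at 0. The dashed line marks Cfd, at 119 FPKM in Old 1 and 147 in Young 2, and every locus has a cross for Old 2 and for Young 1.

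The droplet proteins of fat cells were slightly higher in the Old sample of each pair. Plin1, on chr7:79720531-79732776, was at 2.18 FPKM in Old 1 against 1.60 in Young 2, and 0.626 in Old 2 against 0.422 in Young 1. Its ratios were 1.36 and 1.48, with log2 values (0.44 and 0.57) inside the span from the 10th to the 90th percentile of genes near its level (-0.70 to 0.67, and -1.18 to 0.89). Cidec, on chr6:113424636-113435755, was at 3.15 FPKM in Old 1 and 2.33 in Young 2, and at 0.895 in Old 2 and 0.693 in Young 1. Its ratios of 1.35 and 1.29 lay inside the corresponding spans too (-0.66 to 0.58, and -1.01 to 0.75, on the log2 scale). Both genes kept nearly the same proportion, with 0.692 and 0.699 Plin1 per Cidec in Old 1 and Old 2 and 0.608 and 0.689 in Young 1 and Young 2.

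Of the genes of fatty acid handling, Fabp4 was nearly level between ages and the desaturase Scd1 lower in Old. Fabp4 had ratios of 0.906 and 0.899, inside the spans of genes near its level (log2 -0.60 to 0.61, and -0.57 to 0.50). Scd1, on chr19:44394450-44407709, was at 19.9 FPKM in Old 1 against 34.9 in Young 2, and 8.96 in Old 2 against 15.8 in Young 1. Its ratios were 0.570 and 0.568, a level 1.76-fold lower in Old, and both log2 ratios (-0.81 and -0.82) lay below the 10th percentiles of genes near its level (-0.52 and -0.59). Other enzymes of fatty acid synthesis are described further on.

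The regulator Pparg, on chr6:115361221-115490401, was at 1.58 FPKM in Old 1 against 2.93 in Young 2, and 0.369 in Old 2 against 0.997 in Young 1. Its ratios were 0.537 and 0.370, a level 2.24-fold lower in Old by their geometric mean. The log2 ratios, -0.90 and -1.43, lay below the 10th percentiles of genes near its level, -0.69 and -1.14. Its ratios thus lay below 1, as did those of Fabp4 and Scd1, while those of Adipoq, Plin1, Cidec and Lep lay above 1. The locus value does not separate the upstream start sites from the downstream site printed above, from which the fat cell isoform is known to start.

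Scaling each sample by the median of the genes above 0 in all 4 leaves the ratios within like-scaled pairs nearly unchanged. The medians of those samples were nearly equal, so the same division within the pairs was fixed in advance. Adipoq was then at 5.53 scaled FPKM in Old 1 against 2.81 in Young 2, and 4.58 in Old 2 against 2.09 in Young 1, and Lep at 0.928 and 0.568 in Old 1 and Old 2 and 0.0873 and 0.294 in Young 1 and Young 2, with both Old samples above both Young. Scd1 was at 12.9 and 13.8 in Old and 24.1 and 22.8 in Young, and Pparg at 1.03 and 0.569 in Old and 1.52 and 1.92 in Young, with both Old samples below both Young. Plin1, Cidec and Fabp4 overlapped between ages, so 4 of the 7 did not overlap, 2 higher and 2 lower in Old, beside 50.4% of all genes (24% higher and 26.4% lower). In limma with this scaling 0 of 7 passed, with an adjusted p of 0.0914 for Scd1, 0.114 for Adipoq, 0.234 for Pparg and 0.605 to 0.79 for Cidec, Plin1 and Fabp4, beside 0.604% of genes tested. With cyclic loess, a normalization that removes a factor varying with level and was chosen after seeing the data, limma called 30.5% of all genes. Scd1 (log2 -0.73, adjusted p = 0.0152) and Pparg (log2 -0.54, adjusted p = 0.033) were lower in Old in that fit, while Adipoq (log2 0.82) missed the threshold at adjusted p = 0.0518, Plin1 at 0.12, Cidec at 0.131 and Fabp4 at 0.592. The 2 of 7 lower stand beside 15.1% of all genes lower in that fit, and the 0 of 7 higher beside 15.4%.

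The ratio of one gene to another within a sample cancels a factor common to all genes of that sample, but not the part of it that varies with level. Adipoq per Pparg was 5.39 in Old 1 and 8.05 in Old 2 against 1.37 in Young 1 and 1.47 in Young 2, so the lowest Old value was 3.67-fold above the highest Young. Adipoq per Scd1 was 0.428 and 0.332 in Old against 0.0869 and 0.123 in Young. Plin1 per Pparg, 1.38 and 1.69 in Old, was 0.423 and 0.547 in Young. Each of these ratios, of a secreted or droplet gene to the regulator or to Scd1, was above every Young value in Old. Pparg per Lep was 1.11 and 1.00 in Old against 17.4 and 6.53 in Young. Of the 21 pairs among the 7 genes, 18 did not overlap between ages. The overlapping pairs were Plin1 with Fabp4, Cidec with Fabp4 and Scd1 with Pparg. Plin1 per Cidec counts as not overlapping although its lowest Old value was only 1.005-fold the highest Young. Every pair with Lep is among the 18 and rests on 0.0572 FPKM in Young 1, and pairs that share a gene are not independent. Among all pairs of genes with a mean of at least 0.5 FPKM, 56.9% did not overlap.

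Other genes of fat storage, and further on markers of other cell types, were described by lists of known genes. The totals that follow pool all these lists, cell type markers included, so they do not describe fat storage genes alone. In limma on the values as deposited, 0 of the 101 genes tested passed the adjusted threshold (0.302% of all genes did). An unadjusted p under 0.05 was found for 4 (0.75% of all genes). With median scaling 4 passed (0.604% of all genes), among them the hemoglobin locus described below. With cyclic loess 7 were higher and 46 lower in Old, where 15.4% of all genes were higher and 15.1% lower. Counts of like-scaled ratios below are read beside the 44.8% (higher in both pairs) and 48.3% (lower in both) of all genes.
Enzymes of fatty acid and triglyceride synthesis, to which Scd1 belongs by function, were lower in Old in both pairs for 12 of the 12 genes above 0, with a median log2 ratio of -0.70. Gpam, which starts glycerolipid synthesis, was at 111 FPKM in Old 1 against 133 in Young 2, and 54.3 in Old 2 against 60.9 in Young 1. Lpin1, a phosphatidate phosphatase, was at 78.3 FPKM in Old 1 and 90.0 in Young 2, with ratios of 0.870 and 0.866. With cyclic loess, 6 of the 10 genes tested were lower (beside 15.1% of all genes) and 0 higher (beside 15.4%).
Other lipid droplet proteins differed from Plin1 and Cidec in direction. Of 8 genes above 0, 7 were lower in Old in both pairs and 1 higher, with a median log2 ratio of -0.79, and 5 of 9 tested were lower in the cyclic loess fit (beside 15.1%). Plin3, a perilipin found in most cell types, was at 9.26 FPKM in Old 1 against 42.0 in Young 2, and 4.32 in Old 2 against 21.98 in Young 1, with ratios of 0.220 and 0.196 and an adjusted p of 0.0434 in limma with median scaling. Cidea, a relative of Cidec, was at 1.37 in Old 1 and 1.97 in Young 2 and listed at 0 in the others.

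Transcription factors of fat cell formation other than Pparg were divided, 5 of 11 higher and 5 lower in both pairs (median log2 0.01). Cebpd, an early factor of the program, was at 5.61 FPKM in Old 1 against 23.5 in Young 2, and 2.22 in Old 2 against 11.3 in Young 1, with ratios of 0.239 and 0.196 and an adjusted p of 0.0371 in limma with median scaling. Among fat-enriched membrane and other proteins 6 of 10 were higher and 4 lower (median log2 0.05). Sncg, a synuclein abundant in fat cells and in sensory neurons, was at 12.7 FPKM in Old 1 and 4.73 in Young 2 and at 4.96 in Old 2 and 2.11 in Young 1, ratios of 2.69 and 2.35, with an adjusted p of 0.0462 in limma with median scaling. Its ratios were above 1 in both pairs, as for 6 of the 10 genes of that list, whereas 4, among them Adig (0.749 and 0.520), were below 1.
The adiponectin receptors, in a list measured for 75% of its genes, had ratios nearer 1 than the hormone. Adipor1 was at 229 FPKM in Old 1 against 244 in Young 2, and 111 in Old 2 against 122 in Young 1 (ratios 0.936 and 0.916), and Adipor2 had ratios of 0.839 and 0.838. Of 3 receptors with a value, Lepr included, 1 was higher and 2 lower in both pairs.
The next 4 lists were measured for between 62.5% and 72.7% of their genes, so they stand for those genes only. Of other adipokines above 0, 3 of 6 were higher and 3 lower in both pairs, with Nampt (ratios 0.856 and 0.860) and Sfrp5 (1.03 and 1.07) the most abundant. Of lipolysis genes 1 of 5 was higher and 4 lower, including Pnpla2, the adipose triglyceride lipase, at ratios of 0.464 and 0.467, and its inhibitor G0s2 at 0.721 and 0.703. Of fatty acid uptake genes 1 of 4 was higher, the muscle carrier Fabp3 (1.22 and 1.35), and 3 lower, with the transporter Cd36 at 0.627 and 0.657. Of brown and beige fat markers 1 of 5 was higher and 3 lower, with Cox7a1, also a muscle gene, at 0.532 in both pairs and the locus of Cpt1b at 0.782 and 0.794.

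**Figure D5:**
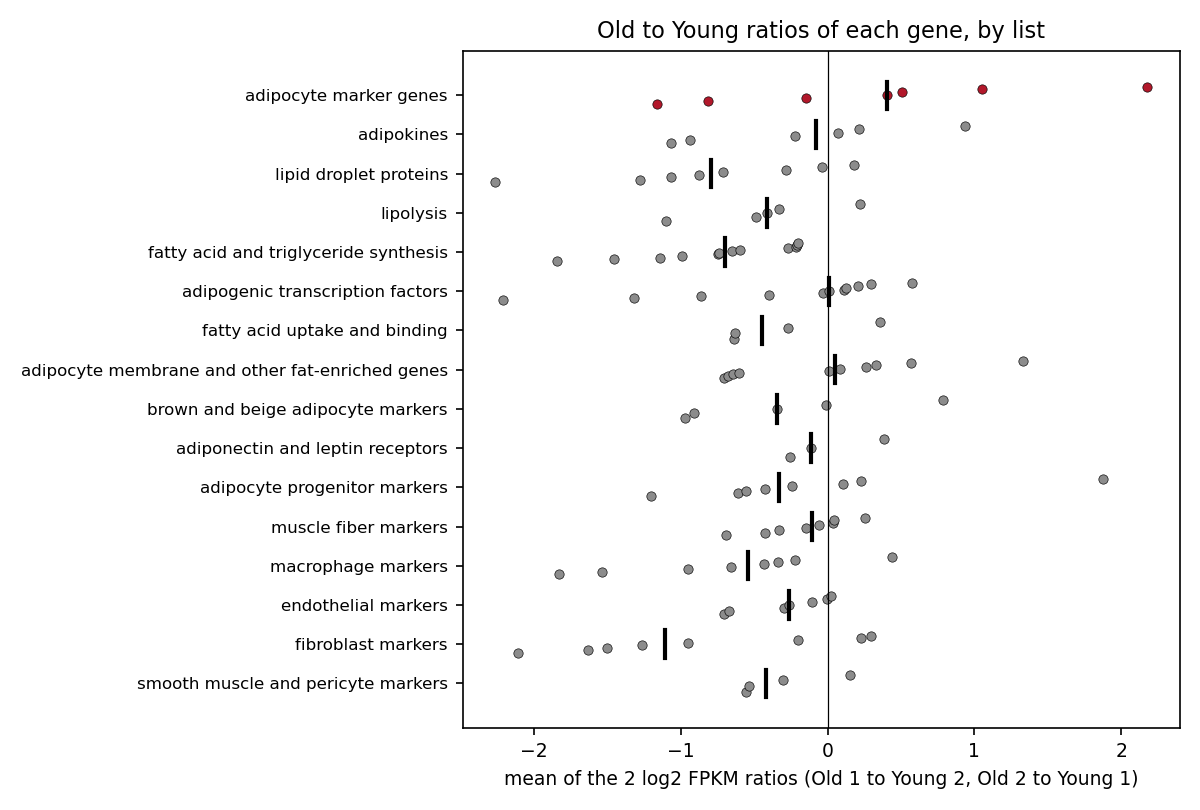
Mean of the 2 log2 FPKM ratios (Old 1 to Young 2 and Old 2 to Young 1) for each gene above 0 in all 4 samples, by list, with black bars for the medians and red points for the adipocyte marker genes. The adipocyte marker genes spread from Pparg (-1.16) to Lep (2.18), while all genes of the synthesis list lie below 0.

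Markers of the other cells of muscle were set beside the adipocyte marker genes, and their part in the values above was not tested. Markers of fat cell progenitors were lower in Old in both pairs for 5 of 8 genes and higher for 2 (median log2 -0.33). Ly6a had ratios of 0.442 and 0.428 and Cd34 0.748 and 0.740. Those higher were Pdgfra, at ratios of 1.16 and 1.18, and Dlk1, which was under 1 FPKM in every sample. Dlk1 was at 0.403 FPKM in Old 1 against 0.298 in Young 2, and 0.0545 in Old 2 against 0.00545 in Young 1. Endothelial markers, from cells that also make Fabp4, were lower for 5 of 7 (median log2 -0.26), with summed levels of 133 and 66.8 FPKM in Old 1 and Old 2 and 84.5 and 166 in Young 1 and Young 2. Pecam1 had ratios of 0.819 and 0.806 and Egfl7 0.834 and 0.833. Macrophage markers were lower for 7 of 8 (median log2 -0.55) and summed to 22.8 and 36.4 FPKM in Old 1 and Young 2 and to 8.78 and 14.8 in Old 2 and Young 1, with Lyz2 at 0.652 and 0.618 and Cd163 at 0.756 and 0.976. Fibroblast markers were lower for 6 of 8 (median log2 -1.11), with Col1a2 at 0.318 and 0.327, while Dcn was at 1.24 and 1.21. Muscle fiber markers were lower for 5 of 8 and higher for 2 (median log2 -0.10), with Pvalb at 1.02 and 1.03 and Tcap at 0.716 and 0.777. Of smooth muscle markers, with a value for 57.1% of the list, 3 of 4 were lower, with Acta2 at 0.685 and 0.694 and Rgs5 at 0.721 and 0.912. Of the blood cell markers, with a value for 42.9% of the list, the locus of the hemoglobin genes Hba-a1 and Hba-a2 was higher in Old, at 607 FPKM in Old 1 against 88.6 in Young 2, and 277 in Old 2 against 39.5 in Young 1 (ratios 6.85 and 7.02, adjusted p = 0.0362 in limma with median scaling). Slc4a1, the anion exchanger of red cells, was at 0.138 FPKM in Old 1 and 0.0233 in Young 2 and listed at 0 in the others.

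The genes whose 4 values were most like those of Adipoq were found over 8808 genes by the Euclidean distance of log2 FPKM centred over the samples. The nearest was Retnla, a secreted resistin-like protein, at 25.1 FPKM in Old 1 against 12.99 in Young 2, and 9.20 in Old 2 against 4.06 in Young 1 (distance 0.05), followed by Kbtbd12 (0.07), Tiam1 (0.10), Ebpl (0.15) and a locus without a symbol (0.16). These distances rest on 4 samples that share a scale factor. Of the adipocyte marker genes, Plin1 ranked 389 (distance 0.61) and Cidec 605 (0.69), Fabp4 ranked 5680, Scd1 8030 and Pparg 8405. Lep and Cfd were not among the genes ranked, which had to be above 0 in all 4 samples with a mean of at least 1 FPKM.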

How the data were processed

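The 4 TA muscle samples were grouped by the age and number in their labels. Reads had been trimmed, cleared of PCR duplicates by programs of the authors and aligned to mm10 with TopHat2 (2.0.10), with RefSeq genes as a guide. Cufflinks then gave 1 FPKM value a locus in each sample, and these FPKM values are what the authors deposited. Cuffdiff (2.1.1) needs aligned reads and was not repeated. The labels name a TruSeq RNA kit and the methods a stranded one, so strand use is not settled. Depth is unknown, because FPKM holds no counts and no counting interval is given. The values of each sample end in chromosome 7 or at the start of 8, with chromosomes in text order. Later loci were not analysed here, and 1 incomplete line a sample was left out.

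Loci of 1 symbol were summed to 20340 labels. Deposited starts count from 0, and 1 was added. Old and Young were compared with limma 3.58.1 in R 4.3.3 (trend, two-sided, Benjamini-Hochberg adjustment, threshold 0.05) on log2(FPKM + 1), for the 10266 genes that reached 1 FPKM in 2 or more samples. Ratios, counts, motifs and figures came from Python 3.11.15 (pandas 2.3.3, numpy 2.4.6, matplotlib 3.10.9). In simulated data the samples of an age differed by a constant log2 factor of 1, and 200 genes were changed by log2 2. There the fit of values as deposited recovered 1 of the 200 changed genes, and median scaling recovered 200. The measured factor was not constant: in Old its median was log2 2.57 between 0.3 and 1 FPKM and 0.98 between 30 and 1000 FPKM. Recovery under a factor that varies with level was not tested, which bears most on weakly expressed genes such as Lep, Pparg, Plin1 and Cidec.

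The genes and lists were chosen with earlier results of these data known. Named beyond the 8 genes are, of each list, those past the threshold as deposited or with median scaling, otherwise the 2 with the highest mean FPKM, and the 5 genes nearest to Adipoq. Cidea, Lepr, Slc4a1, Ckm, Rps15, Gpx4, Pdgfra, Dlk1 and Adig were named after their values were seen. Older symbols were matched through a gene name table. The values of 1 other marker list are not reported here.

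Same-numbered samples deviated in opposite directions (correlation -0.885 over the 10266 genes). With 2 samples an age this reflects which sample had the higher scale, so whether equal numbers mark a shared preparation was not tested. Alternatives changed the pseudocount, filter, scaling, locus choice, variance trend, block and sample left out.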

Additional observations from a re-analysis of the deposited data

How the results depend on the processing

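As deposited, 18 genes passed upward and 13 downward in Old, and these numbers depended on how the samples were scaled and filtered. It was 0 and 0 without a filter, 4 and 2 where every sample had to reach 1 FPKM, 31 and 31 with median scaling, and 89 and 136 with quantile normalization. Among settings added after seeing the data it was 1584 and 1550 with cyclic loess, 4 and 2 after removal of genes at 0, 180 and 305 after that removal followed by median scaling, and 12 and 13 with the median taken over tested genes. Leaving out 1 sample gave 2 to 6 higher and 3 to 10 lower.

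Of the 7 adipocyte marker genes tested, 0 were higher and 0 lower as deposited. With quantile normalization 1 of 7 was lower (Scd1, adjusted p = 0.04 in limma), beside 136 of 10266 genes. With cyclic loess 2 of 7 were lower (Scd1 and Pparg), beside 15.1% of all genes. Median scaling after removal of genes at 0 gave 305 of 9293 genes lower. Among them was 1 of 6 adipocyte marker genes (Scd1, adjusted p = 0.049 in limma). Without a sample 0 passed in either direction. Their median log2 fold change ran from -0.62 to 0.73 when 1 sample was left out, while that of all genes ran from -0.54 to 0.50. The direction turned without Old 1 or Young 1 for Plin1 (-0.24, -0.20, range to 0.73) and Cidec (-0.33, -0.25, range to 0.81), and without Old 2 or Young 2 for Fabp4 (0.32, 0.32, range from -0.62) and Cfd (3.30, 3.45, range from -3.76), whose 0s enter as levels. Adipoq ran from 0.16 to 1.42, Scd1 from -1.32 to -0.22, Pparg from -1.07 to -0.09 and Lep from 0.14 to 0.97. In the other settings that could be fitted (10 for Cfd, 12 for Plin1, Cidec and Pparg, 13 for the rest) no gene changed sign, but their median ran from -0.15 to 0.05. With a pseudocount of 0.1, Lep, untested, moved from 0.56 to 1.52, Pparg from -0.58 to -1.04, Plin1 from 0.24 to 0.45 and Cidec from 0.24 to 0.37.

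With the replicate block 2 genes were higher and 3 lower, and 0 adipocyte marker genes passed. Whether the numbers pair the samples was not tested. The crossed pairing of Old 1 with Young 2 and Old 2 with Young 1 was also taken as a block. In that fit 2812 of 10266 genes were higher and 3374 lower, with 2 of 7 adipocyte marker genes higher and 3 lower.

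The scale factor between samples of an age, the unknown depth behind values under 1 FPKM and the interval of Cfd at 0 limit these results.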
